A study of Mus musculus with 13 samples.

Results

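Control Treg cells were compared with Treg “wannabes”, the T cells that had switched on the Foxp3 gene without being able to make Foxp3 protein. The comparison used 5 libraries of the 13 in the bulk RNA-seq series, 3 of control Treg cells and 2 of wannabes, chosen by their labels. Control Treg cells (TCRβ+CD4+Foxp3+) were sorted from healthy male Foxp3DTR-GFP/y Cd4creERT2 mice, whose Foxp3 allele carries a fusion of the diphtheria toxin receptor and GFP. Wannabes (TCRβ+CD4+Foxp3-Thy1.1+) were sorted from diseased male Foxp3LSL/y Cd4wt mice, in which a Thy1.1 reporter and a STOP cassette between loxP sites interrupt Foxp3. All mice were C57BL/6, were given the Cre-activating drug 4-hydroxytamoxifen (4-OHT) at postnatal day 14, and pooled spleen and lymph nodes were taken at day 21. Cre recombinase, expressed from the Cd4 locus, was present in the controls and absent in the wannabe mice. The groups therefore differed at once in Foxp3 protein, in the inflammation of the host, in the Foxp3 allele and in Cre, and these cannot be told apart in this comparison. Libraries of 3 rescued Treg samples (male Foxp3LSL Cd4creERT2 mice, in which 4-OHT removed the cassette) entered the fit to share the estimate of the spread.

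Foxp3 is the X-linked transcription factor that defines Treg cells, the CD4 T cells that restrain other T cells through receptors such as CTLA-4, through capture of IL-2 by CD25 and through inhibitory cytokines. Mice without it develop a fatal lymphoproliferative disease, with activated helper T cells of several types. Cells that transcribe a nonfunctional Foxp3 allele keep part of the Treg phenotype and make cytokines that Treg cells normally do not.

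Between 30262093 and 34470710 reads were counted on genes per control library, and 34098364 and 31940308 per wannabe library. Replicates had Pearson correlations of log2 CPM (counts scaled to the library total) between 0.953 and 0.963, a correlation across genes, which are not independent replicates. Every replicate pair differed beyond counting noise. Among markers of other cells, Ms4a1 (B cells) was at most at 0.0626 CPM, Lyz2 (myeloid cells) at 0.557, Cd8a (CD8 T cells) at 0.148 and Ncr1 (NK cells) at 0 in all 5 libraries, whereas Cd79b and Cd22 (B cells) reached 35.2 and 16.2, Cd8b1 (CD8 T cells) 26.5, Itgam (myeloid cells) 10.7 and Pecam1 (endothelium and platelets, also some T cells) 315. The 12 B and plasma cell markers in the table together held 40.4 to 55.5 CPM in control libraries and 44.8 and 59.5 in wannabes, and the 21 myeloid markers 5.19 to 12.95 and 5.42 to 11.7. The 16 erythroid, platelet and stromal markers, most of whose counts were of Pecam1, held 272 to 321 in control and 213 and 182 in wannabes.

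Of 14925 genes with enough counts, 2416 (16.2%) differed between the populations in edgeR's quasi-likelihood test at an adjusted p under 0.05. Control Treg cells were higher for 1480 genes (9.92%) and lower for 936 (6.27%). More than 8-fold differences were about as frequent in both directions, 88 higher and 89 lower, and 50 and 59 genes differed by over 16-fold. At an unadjusted p under 0.05, 4655 genes differed. With 3 libraries against 2, 46.1% of all genes tested had groups that did not overlap, which is the background for each statement of non-overlap that follows. The median log2 fold change (control minus wannabe, as throughout) over all genes tested was 0.09. Leaving out 1 library changed the count most where a control library was left out, to 1588 without control replicate 1, 1549 without replicate 2 and 1580 without replicate 3. DESeq2 called 3767 genes.

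**Figure D1:**
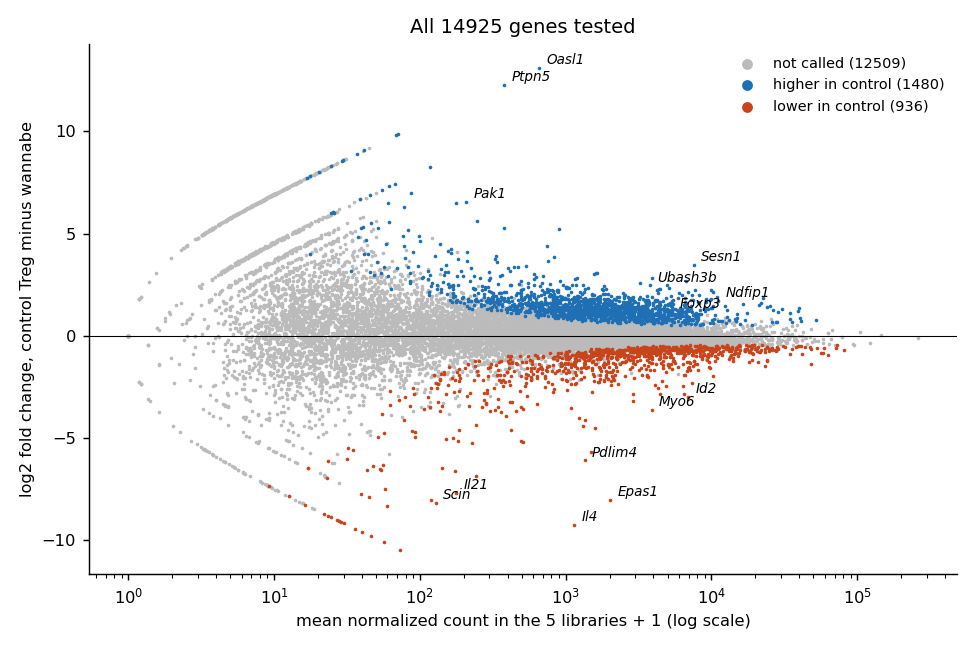
Each point is 1 of the 14925 genes tested, with the mean normalized count in the 5 libraries plus 1 on a log axis and the log2 fold change of control Treg cells over wannabes on the vertical axis. Blue points (1480) were called higher and red points (936) lower in control Treg cells. Among well-counted genes lower in control, Epas1 and Il4 stand apart, at -8.03 and -9.25.

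The labels were checked first. Foxp3 held 5479, 7061 and 8264 normalized counts (counts scaled by TMM library size) in the control libraries and 2762 and 3273 in the wannabes, 2.30-fold higher in control (log2 1.20 ± 0.20 SE, adjusted p = 0.00313). The wannabe locus was thus transcribed, and no library of one group reached the other. Exons of Foxp3 (chrX:7573644-7595245, GRCm38) overlap those of Ccdc22 and Ppp1r3f on the opposite strand, and the strand setting of the counting is not stated. Exons of Bach2, Cd74, H2-DMa, Bhlhe40, Fn1, Tpi1, Gapdh, Gata3, Irf7, Jak1, Rora, Afap1l1, Aldoa and Cxcr5, all described further on, also overlap those of another gene. Thy1, to which the Thy1.1 reporter of the cassette belongs, was at 1531, 1352 and 1458 in control and at 6430 and 10717 in wannabes (log2 -2.57 ± 0.22, adjusted p = 0.00016). Thy1 did not overlap between the groups either. Cd3e, a chain of the T cell receptor complex, held 25344, 27012 and 25204 against 27581 and 35682 (log2 -0.29 ± 0.14, adjusted p = 0.197, and 0.0481 without wannabe replicate 1). Cd4 was at 13373, 14323 and 12792 in control and at 31727 and 44987 in wannabes (log2 -1.51 ± 0.16, adjusted p = 0.000456), and the Cd4 locus carried the Cre insertion in the controls only.

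Epas1, which encodes the hypoxia-inducible factor HIF-2α (chr17:86753700-86833410, plus strand, GRCm38), had the smallest p of all genes. Its normalized counts were 36.5, 8.21 and 14.2 in control Treg cells and 4302 and 5769 in wannabes, so that it was almost silent in one population and well transcribed in the other. It was 261-fold lower in control (log2 -8.03 ± 0.51, adjusted p = 4.07e-05). The rescued libraries, which share the fit, held 1362, 789 and 1355. In the 25 tested hypoxia genes, 3 were higher and 6 lower in control, with a median of -0.04. The lower ones were Epas1, Bhlhe40, Arnt2, Egln3, Slc2a1 and Hif1an, and the higher ones Hif1a, P4ha1 and Pdk1. Hif1a, the paralogous oxygen-regulated subunit, differed in the opposite direction, with 11435, 9554 and 10502 against 3033 and 2226 (log2 2.00 ± 0.18, adjusted p = 0.000209). P4ha1, a collagen prolyl hydroxylase subunit and known HIF target, was 4.76-fold higher in control (adjusted p = 0.000277), and Pdk1, the kinase that restrains pyruvate dehydrogenase, 2.47-fold (adjusted p = 0.005). Bhlhe40, a transcription factor of cytokine-producing T cells, held 1455, 1759 and 1923 against 8467 and 10662 and was 5.58-fold lower in control.

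Myo6 encodes myosin VI, the motor that walks to the minus end of actin filaments. It was at 679, 718 and 714 in control and at 8675 and 8710 in wannabes (log2 -3.63 ± 0.23, adjusted p = 4.07e-05). Replicates were within a narrow range in both groups, and the rescued libraries held 2303, 1636 and 1327. Of 21 tested unconventional myosins, 1 was higher and 2 were lower in control (median 0.01), 14.3% called against 16.2% of all genes tested. Myo1g, a membrane-tethering class I myosin of lymphocytes, was the other lower one, at 14139, 14445 and 14420 against 21285 and 26460 (log2 -0.74 ± 0.14, adjusted p = 0.00624). Myo9a, a class IX myosin, was higher in control (log2 1.81 ± 0.34, adjusted p = 0.00495).

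Id2, an inhibitor that binds E proteins and keeps them from DNA, was at 2107, 1707 and 1697 in control and at 15651 and 13582 in wannabes (log2 -2.99 ± 0.21, adjusted p = 6.44e-05). Its relative Id3 was higher in control, at 10993, 9642 and 8025 against 3110 and 3982 (log2 1.43 ± 0.27, adjusted p = 0.00576). These inhibitors thus differed in opposite directions, each with no overlap between the groups. Tcf3, the gene of the E proteins E12 and E47, was higher in control (3008, 3017 and 2400 against 689 and 1045, adjusted p = 0.00389). Tcf12, the gene of the E protein HEB, was 1.69-fold higher, and its call was lost without control replicate 1 (adjusted p = 0.064), control replicate 3 (0.082) or wannabe replicate 2 (0.13), and with an offset for GC content and length (0.0939). Of 6 tested genes of this family, 3 were higher and 1 was lower, with a median of 0.63.

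Sesn1, a sestrin that senses leucine and restrains the growth kinase complex mTORC1, held 13427, 11031 and 11107 in control and 1137 and 993 in wannabes (log2 3.48 ± 0.23, adjusted p = 5.17e-05). The rescued libraries had 4380, 5392 and 6830. In the 32 tested sestrins and mTORC1 regulators, 6 were higher in control and 1 was lower, with a median of -0.09. The higher ones were Sesn1, Sesn3, Rragc, Rheb, Rraga and Akt1s1, so that the group held activators as well as inhibitors of mTORC1. Sesn3 lost its call without control replicate 3 (0.0563) or wannabe replicate 1 (0.0642), and Akt1s1 and Rraga without wannabe replicate 2 (0.0566 and 0.0695). Rheb, the GTPase that switches mTORC1 on, was at 3472, 2741 and 3051 against 1199 and 1033 (adjusted p = 0.00269), and Rragc, a Rag GTPase of the amino acid pathway, was 3.18-fold higher (adjusted p = 0.00534).

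Ubash3b encodes STS-1, a phosphatase that damps signals from the T cell receptor. Control libraries held 6213, 5332 and 5399 normalized counts and wannabes 898 and 1142 (log2 2.47 ± 0.22, adjusted p = 0.000176), while rescued libraries held 6523, 5306 and 7618. Its paralog Ubash3a was at 10383, 10699 and 11593 against 9741 and 14082, with overlap and no call (adjusted p = 0.683). Among 29 tested brakes on receptor signalling, 5 were higher in control and 3 lower (median 0.18). Higher in control were also Dusp4, a phosphatase of MAP kinases (1372, 1570 and 1341 against 260.3 and 246), and Ndfip1, the adaptor of the ubiquitin ligase Itch (15275, 15641 and 15121 against 5261 and 4179). Cbl, another ubiquitin ligase, was 2.90-fold and Rasa2, a Ras GTPase-activating protein, 2.47-fold higher. Lower in control were Dusp6, the ERK phosphatase (log2 -1.52 ± 0.22, adjusted p = 0.00146), and Dok2, an adaptor that recruits Ras GTPase-activating protein (log2 -0.90 ± 0.15, adjusted p = 0.00275). Of the 24 tested genes of the receptor complex and its proximal kinases, 2 were higher and 1, Cd4, was lower (median -0.09). The share called, 12.5%, was below the 16.2% of all genes tested.

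**Figure D2:**
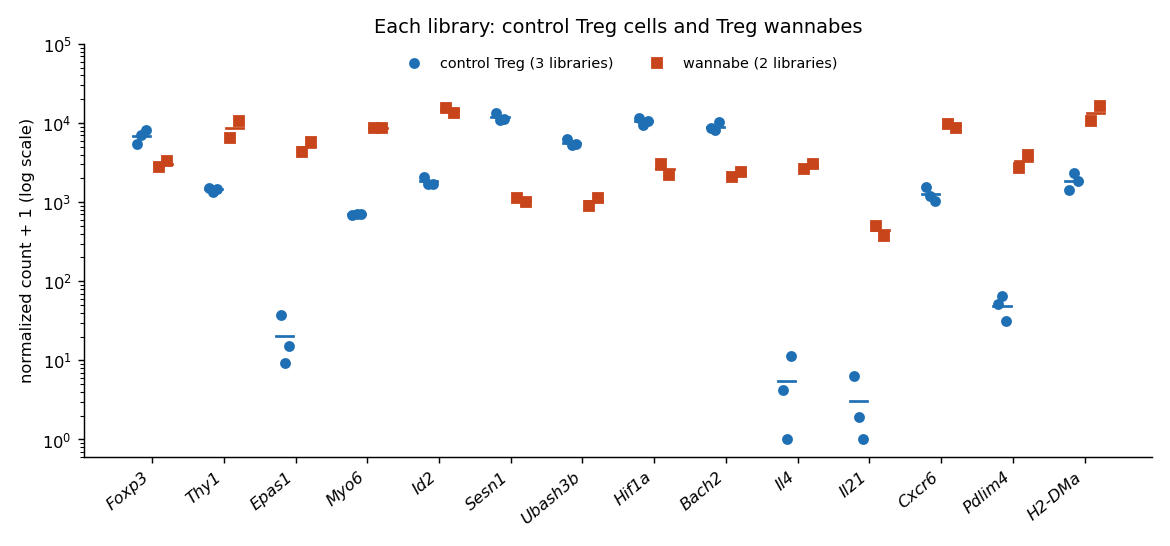
Each point is 1 library, with the normalized count plus 1 on a log axis for 14 genes, circles for the 3 control Treg libraries, squares for the 2 wannabe libraries and a line at the mean of each. No control library overlaps a wannabe library for any of these genes, as for 46.1% of all genes tested, and Epas1, Il4 and Il21 are near 0 in control only.

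Genes of Treg identity and suppression differed in both directions. Of 30 tested, 9 were higher in control Treg cells, 6 were lower and 15 did not pass the test, and the median was 0.11. Itgb8, the integrin chain that activates TGF-β, differed most, with 972, 951 and 1647 against 75.2 and 111 (log2 3.68 ± 0.68, adjusted p = 0.00469). Tnfrsf9, the costimulatory receptor 4-1BB, was at 11289, 10895 and 11283 against 3416 and 3671 (adjusted p = 0.000368). Klrg1, a receptor of terminally differentiated Treg cells, was 2.93-fold higher, Lrrc32, the surface anchor of latent TGF-β, 2.77-fold, Ikzf2, the transcription factor Helios, 2.75-fold, and Nt5e, the adenosine-producing enzyme CD73, 1.63-fold. Il2ra (CD25) held 20412, 20662 and 20242 against 11184 and 12623 (log2 0.78 ± 0.18, adjusted p = 0.0125), and its call was lost without wannabe replicate 1 (0.0503). Ctla4 held 21611, 19032 and 24437 against 15860 and 13866 (log2 0.55 ± 0.15, adjusted p = 0.0326), and its call was lost without control replicate 1 (0.077), control replicate 3 (0.12) or wannabe replicate 2 (0.16), in a fit of only the 5 libraries (0.0772) and with the replicate block (0.0525). Both genes also lost their call with an offset for GC content and length (0.088 and 0.058).

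The 6 suppressor genes lower in control were Il10, Penk, Tigit, Itgae, Fgl2 and Entpd1. Il10, an inhibitory cytokine, was at 493, 428 and 332 in control and at 1759 and 1997 in wannabes (log2 -2.17 ± 0.24, adjusted p = 0.000447). Penk, the enkephalin precursor, was at 3653, 4198 and 4872 against 10754 and 16677 (adjusted p = 0.000902). Tigit, an inhibitory receptor, was at 3413, 2685 and 3636 against 7075 and 9776 (adjusted p = 0.00153). These transcripts were thus higher in cells without Foxp3 protein, with no overlap between the groups. Without control replicate 2, control replicate 3 or wannabe replicate 2, the count of lower genes was 3. Entpd1 (CD39) lost its call without any single library (adjusted p = 0.0638 to 0.117), Fgl2 without any of 4 (0.0548 to 0.089) and Itgae without any of 3 (0.052 to 0.133).

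Of 12 genes known to be repressed by Foxp3, 4 were lower in control and none was higher, with a median of -1.13. DESeq2 also called none higher and 5 lower. All 12 had a negative log2 fold change. Il4, the cytokine of type 2 help, held 3.22, 0 and 10.4 normalized counts in control and 2609 and 3077 in wannabes (log2 -9.25 ± 0.73, adjusted p = 0.000135). Cd40lg, the ligand by which helper T cells license B cells, was 2.98-fold lower in control (adjusted p = 0.00162) and Tcf7, the transcription factor TCF-1, 2.10-fold lower (adjusted p = 0.00187). Il7r, the IL-7 receptor chain, was 1.67-fold lower (adjusted p = 0.0308), a call lost without control replicate 1 (0.092), control replicate 2 (0.11) or wannabe replicate 1 (0.099).

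Of 27 tested cytokine ligands, 12 were lower in control, 2 were higher and 13 did not pass the test, with a median of -1.61. Summed over the list, ligands held 2438, 2535 and 2126 CPM in control and 1799 and 2417 in wannabes, with overlap. Besides Il4 and Il10, Il21, the cytokine of B cell help, was at 5.36, 0.912 and 0 against 502 and 375 (log2 -7.69 ± 1.04, adjusted p = 0.00115). Il13, a further type 2 cytokine, was at 0 in all 3 control libraries and at 123 and 72.2 in wannabes, at least 32.4-fold lower in control when 3 counts per library are taken as the floor, and its call was lost without wannabe replicate 1 (0.054). Tnfsf8, the ligand of CD30, was at 1387, 1452 and 1592 against 7678 and 8260. Tnfsf13b, the B cell survival factor BAFF, was at 34.3, 79.3 and 6.61 against 832 and 1154 (adjusted p = 0.00202). The ligands higher in control were Ltb and Tnfsf11, of which Tnfsf11, the ligand RANKL, lost its call without any single library (adjusted p = 0.0521 to 0.157). Ltb, lymphotoxin β, was at 33705, 34495 and 27064 against 4947 and 12738 (log2 1.84 ± 0.33, adjusted p = 0.00429).

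Among helper programmes, type 2 genes were lower in control. Of 18 tested, 7 were lower in control and none was higher (median -0.76), also with DESeq2 (8 and none). Cysltr1, a leukotriene receptor, was at 159, 27.4 and 344 against 4270 and 2019 (adjusted p = 0.00387). Il4ra, the IL-4 receptor chain, was 2.42-fold lower and Il1rl1, the IL-33 receptor ST2, 1.82-fold lower. Gata3, the transcription factor of type 2 help, was 1.59-fold lower (adjusted p = 0.0239), a call lost without control replicate 1 (0.056), control replicate 2 (0.088) or wannabe replicate 2 (0.085). Of 22 type 1 genes, 1, the cytotoxic granule gene Nkg7, was lower and none higher in edgeR's test, and 5 were lower and 1 higher with DESeq2. The share called by edgeR, 4.55%, was below the 16.2% of all genes tested. Nkg7 lost its call without control replicate 1 (0.0529), control replicate 3 (0.0584) or wannabe replicate 2 (0.167). Tbx21, the gene of T-bet, was at 280.0, 477 and 248 against 108 and 331, and Ifng at 103, 184 and 50.01 against 223 and 291. Neither gene was called (adjusted p = 0.402 and 0.148). Type 17 genes went both ways, with 3 of 16 higher and 4 lower in control (median -0.69). The lower ones were Il21, Il1r1, Batf and Irf4, and 5 of the 16 had a positive log2 fold change. Ccr6, the receptor for CCL20, was at 2579, 2645 and 3177 against 709 and 669, and Il6ra and Rora were 3.01-fold and 2.21-fold higher in control.

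Homing genes also split. Of 21 tested chemokine receptors, 4 were higher and 4 lower (median -0.42). Without wannabe replicate 1 the counts were 2 and 6, with Ccr10 (0.0605) and Cxcr5 (0.197) no longer called, and without control replicate 2 the count of lower genes was 2. Cxcr6, a receptor of activated tissue T cells, was at 1576, 1194 and 1026 against 9827 and 8726 (adjusted p = 0.00016), and Gpr183, the oxysterol receptor EBI2, at 3663, 2872 and 2738 against 12145 and 11466. Ccr3, the eotaxin receptor, was 6.69-fold higher in control. Of 15 integrin chains, 5 were higher and 1 lower in control, with a median of 1.11. Itgae, the lower one, lost its call as given above, Itga6 without control replicate 2 (0.0507) or wannabe replicate 1 (0.0584), Itga4 without wannabe replicate 2 (0.0753) and Itgam without control replicate 1 (0.0715), control replicate 3 (0.071) or wannabe replicate 1 (0.0806). Itgb7, the chain of the gut-homing integrin α4β7, was at 56009, 56400 and 45791 against 14707 and 26410 (adjusted p = 0.00274). Among 20 genes of resting and recirculating T cells, 8 were higher and 4 lower (median 0.59). Bach2, a repressor that holds T cells in a resting state, was at 8632, 8112 and 10184 against 2071 and 2438 (log2 1.99 ± 0.20, adjusted p = 0.000382), and Foxo1, a transcription factor of resting T cells, was 2.46-fold higher. The count of higher genes was 5 without wannabe replicate 1, and that of lower genes 2 without control replicate 1 or 2.

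In the IL-2 pathway, 5 of 16 tested genes were higher in control and 1 was lower (median 0.44). Jak1, the kinase shared by several cytokine receptors, was 2.36-fold higher (adjusted p = 0.00105). Cish, a STAT5-induced feedback inhibitor, was the one lower, at 10738, 14061 and 13293 against 22766 and 34728 (adjusted p = 0.00316). Socs1, another feedback inhibitor, was 5.14-fold higher in control (adjusted p = 0.0168), a call lost without control replicate 2 (0.0501) or wannabe replicate 1 (0.069). The count of higher genes was 1 without wannabe replicate 1, 2 without control replicate 2 and 3 without control replicate 1 or 3.

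Gzma, the gene of granzyme A, was at 1.07, 34.7 and 6.61 in control and at 661 and 427 in wannabes (log2 -5.23 ± 0.89, adjusted p = 0.0034), and Gzmb was 2.56-fold lower in control. Among 19 granzyme and killer cell genes, 4 were lower and 1, Klrg1, was higher. Without control replicate 1 or 3, Nkg7 and Klrk1, the receptor NKG2D, lost their call, which left 2 lower. The NK cell marker Klrb1c was at most at 1.36 CPM in control and 6.51 in wannabes. It was called lower (adjusted p = 0.0263), a call lost without control replicate 1 (0.08), control replicate 2 (0.0769) or wannabe replicate 2 (0.0992) and with the replicate block (0.0843). The 8 CD8, NK and γδ T cell markers together held 14.96 to 26.2 and 23.4 and 33.3 CPM. Their part in the killer gene result was not tested. Of 6 tested MHC class II genes, 4 were lower in control and 2 had a positive log2 fold change without a call (median -1.53). Summed over the list, class II genes held 345 to 405 CPM in control and 736 and 985 in wannabes. H2-DMa, the chain of the peptide editor, was at 1408, 2311 and 1857 against 10602 and 16507 (adjusted p = 0.000176), and Cd74, the invariant chain, at 2408, 1751 and 1821 against 6042 and 6888. H2-Aa, the α chain of I-A, was at 0, 10.9 and 0 against 359.9 and 329. H2-Ab1 and H2-Eb1, the β chains, were listed at 0 in every library. B cells and dendritic cells also express class II genes. The B cell marker sums overlapped between the groups, as given above. The sums of the myeloid and dendritic cell markers did so too, but Itgam reached 10.7 CPM in control and 0.845 in wannabes. Of their other members, Mpo, Clec4d, Adgre1 and Ly6g had their highest CPM in a wannabe library, and Fcgr3 and S100a8 in a control library. Among the dendritic cell markers, Xcr1 was at most at 1.88 CPM in control and 6.45 in wannabes, whereas Clec9a, Siglech and Cd209a were at 0 and Flt3 and Itgax at most at 0.058. The part of such cells in the class II result was not tested. In these bulk samples, a change in the share of cells that express a gene cannot be told from a change per cell.

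**Figure D3:**
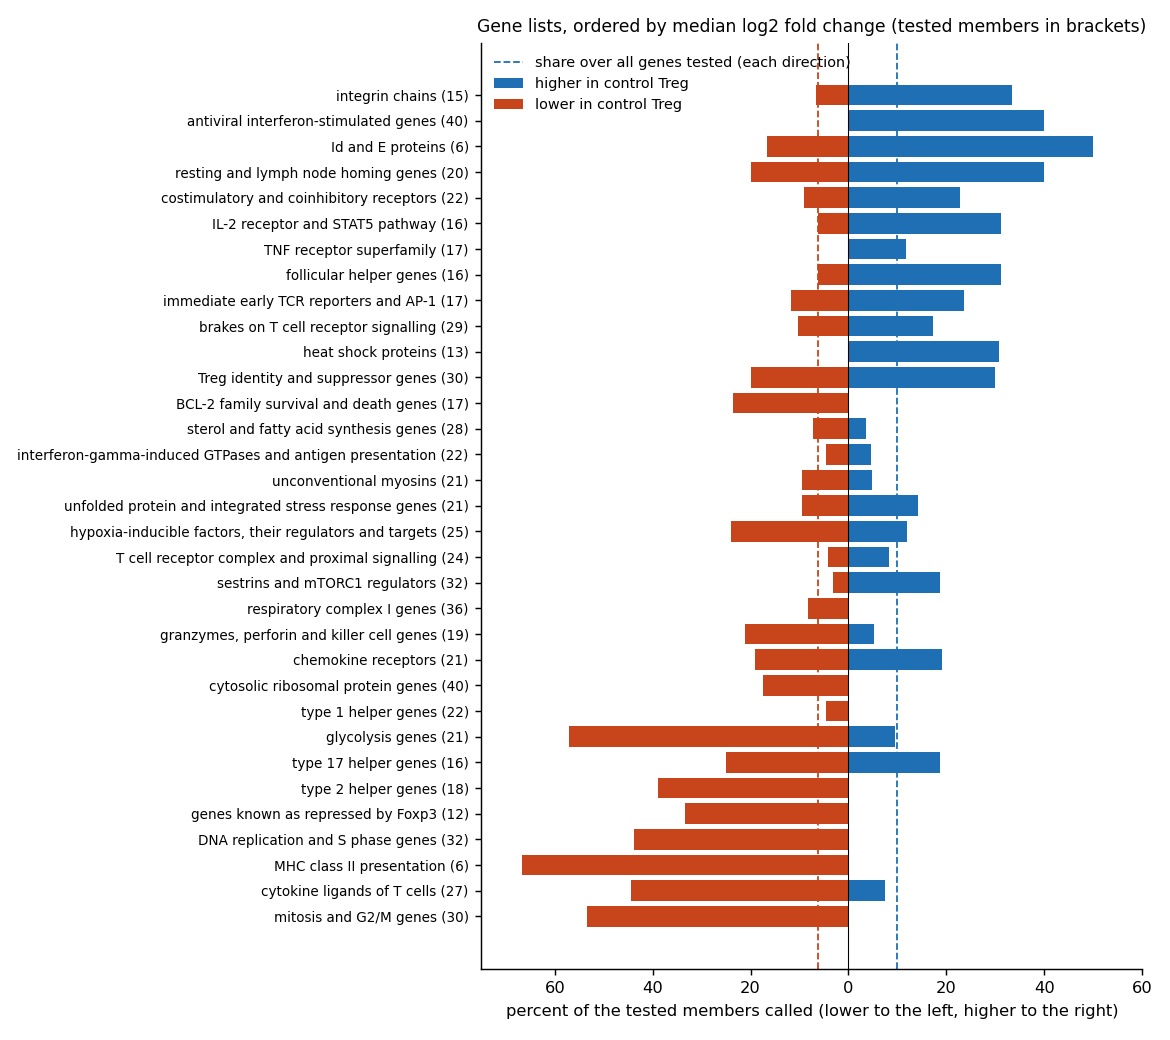
Bars give the percent of tested members of each gene list called lower (red, left) and higher (blue, right) in control Treg cells, ordered by the median log2 fold change. The number of tested members is in brackets and dashed lines mark the shares over all genes tested, 6.27% and 9.92%. Lists of markers of other cells are left out. Integrin chains and antiviral interferon-stimulated genes are at the upper end, cytokine ligands and mitosis genes at the lower end.

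Several of the largest differences lay outside these lists. Among the 10 largest rises, Ptpn5, the tyrosine phosphatase STEP, was at 676, 653 and 554 in control and at 0 in both wannabes, at least 216-fold higher. Pak1, a kinase downstream of Rac and Cdc42, was at 414, 275 and 335 against 2.82 and 4.31 (log2 6.54 ± 0.64, adjusted p = 0.000334). F13a1, the gene of coagulation factor XIII A, was at 363, 342 and 165 against 1.88 and 4.31. Afap1l1, an actin filament-associated protein, was at 173, 264 and 145 against 0 and 1.08. Slc25a27, a mitochondrial uncoupling protein, and Fcmr, the IgM Fc receptor, were 49.5-fold and 22.2-fold higher in control.

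Among the 10 largest falls, Pdlim4, a PDZ and LIM domain protein of the actin cytoskeleton, was at 50.4, 63.8 and 30.2 in control and at 2732 and 3897 in wannabes (log2 -6.10 ± 0.44, adjusted p = 6.5e-05). Vdr, the vitamin D receptor, was at 149, 48.3 and 16.98 against 3680 and 3548 (adjusted p = 0.000536). Scin, an actin-severing protein, was at 1.07, 0 and 1.89 against 499 and 138, and Qrfp, a neuropeptide precursor, at 2.15, 0.912 and 0 against 355 and 229. These transcripts were near absent in control libraries. Fn1, fibronectin, was at 1.07, 0.912 and 10.4 against 601 and 251, and Ccl1, the ligand of CCR8, at 8.58, 6.38 and 0 against 144 and 1045. The stromal markers Col1a2 and Col1a1 were at most at 0.116 and 0.694 CPM in control and 6.07 and 5.25 in wannabes. Col3a1 was at most at 0.0593 in control and at 0 in wannabes. The whole marker list summed higher in control, as given above, but most of that sum was Pecam1. Pecam1 was at most at 315 CPM in control and 185 in wannabes, so the sum says little about the stromal markers. The part of stromal cells in the Fn1 result was not tested. Of the 10 genes with the smallest p, Ier3, Adam8 and Ehd3, an early response gene, a metalloprotease and an endosomal recycling protein, were 12.1-fold, 7.22-fold and 5.01-fold lower in control.

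Antiviral interferon-stimulated genes were higher in control Treg cells. Of 40 tested, 16 were called higher and none lower, 39 had a positive log2 fold change, and the median was 1.07. DESeq2 called 21 higher and none lower. Oasl1, a 2′-5′-oligoadenylate synthetase-like protein, was at 328, 2425 and 549 in control and at 0 in both wannabes, at least 383-fold higher, and at least 150-fold without control replicate 2. Mx2, a dynamin-like antiviral GTPase, was at 281, 1268 and 516 against 63.0 and 68.9 (log2 3.38 ± 0.65, adjusted p = 0.00592). Ifit1, which binds foreign RNA, was at 3648, 12732 and 5806 against 1411 and 1203 (log2 2.50 ± 0.45, adjusted p = 0.0042). Control replicate 2 had the highest value for each of these genes. Isg15, a ubiquitin-like protein (1140, 3799 and 1637 against 822 and 1310), and Irf7, the transcription factor of type I interferon induction (6533, 19032 and 9417 against 4090 and 7436), were not called, with overlapping groups. Both passed with the replicate block (0.0444 and 0.0491) and with an offset for GC content and length (0.0413 and 0.0364), and Irf7 also passed with no filter on low counts (0.0428). The count of members called fell to 9 without control replicate 2, to 8 without wannabe replicate 1 and to 10 without wannabe replicate 2. Of 22 GTPases and antigen presentation genes induced by interferon-γ, 1 was higher and 1 lower (median 0.05). Their share called, 9.09%, was below the 16.2% of all genes tested.

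Promoters of antiviral genes are shown because the element through which interferons act can be read in some of them. The interferon-stimulated response element was searched on both strands as a pair of GAAA runs with any 2 bases between them, in the RefSeq windows (GRCm38.p6) that run from 250 bases before to 50 bases after a gene's start. It was present for 17 of the 29 list members with a window (58.6%), against 3.71% of 11460 tested genes with one. By call, it was present for 8 of 11 members called and 9 of 18 not called. The lines below give 90 bases 5′ to 3′ on the gene's strand, before the start of Oas1a (chr5:120907526-120907615, minus strand), Ifit1 (chr19:34640775-34640864, plus strand) and Ifit3 (chr19:34583363-34583452, plus strand), with matches in capitals, read as a pair of TTTC runs where the match is on the other strand.
Oas1a: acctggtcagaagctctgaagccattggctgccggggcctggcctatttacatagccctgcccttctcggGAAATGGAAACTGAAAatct
Ifit1: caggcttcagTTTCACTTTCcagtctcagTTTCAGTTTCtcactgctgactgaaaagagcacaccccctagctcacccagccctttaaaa
Ifit3: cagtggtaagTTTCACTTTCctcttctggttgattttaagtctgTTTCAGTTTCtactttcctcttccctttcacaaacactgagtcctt
Oas1a, a 2′-5′-oligoadenylate synthetase, has 2 overlapping matches next to its start. It was at 627, 1880 and 1123 in control and at 19.7 and 96.9 in wannabes (adjusted p = 0.0115), and its near-identical neighbours could share its reads. Ifit3 was at 1258, 13405 and 3179 against 825 and 848 (adjusted p = 0.0277), a call lost without wannabe replicate 1 (0.097) or wannabe replicate 2 (0.11) and in a fit of only the 5 libraries (0.0588), and its copy Ifit3b could likewise share reads.

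Cell cycle genes were lower in control Treg cells. Of 30 tested mitosis and G2/M genes, 16 were lower and none higher (median -1.90), and of 32 DNA replication genes, 14 were lower and none higher (median -1.18). DESeq2 called 15 and 18 lower and none higher. Summed over the list, mitosis genes held 932, 449 and 1551 CPM in control and 4300.2 and 1665 in wannabes. The lower wannabe library was thus close to the highest control library. Without wannabe replicate 1 none of the 30 mitosis genes was called, with a median of -0.92, and without control replicate 1 or 2 the count was 2 and 5. The replication genes came to 22 without wannabe replicate 2, and to 6 without wannabe replicate 1, 7 without control replicate 2 and 8 without control replicate 1. E2f8, a repressor of the E2F family, was called in every one of these fits, at 291, 229.8 and 289 against 2351 and 993 (log2 -2.63 ± 0.40, adjusted p = 0.00192). So were Mcm3 and Mcm5, subunits of the replicative helicase, 2.44-fold and 2.47-fold lower in control.

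The upstream stretches of Cdk1 and Kif11 show the cell cycle homology region, searched as TTTGAA on both strands and present for 19 of 25 mitosis genes with a window (76.0%), against 14.9% of all tested genes with one. By call, it was present for 9 of 13 members called and 10 of 12 not called. Both stretches end at the base before the gene's start, Cdk1 on the minus strand (chr10:69352913-69353002) and Kif11 on the plus strand (chr19:37376292-37376381), with matches in capitals and TTCAAA for a match on the other strand.
Cdk1: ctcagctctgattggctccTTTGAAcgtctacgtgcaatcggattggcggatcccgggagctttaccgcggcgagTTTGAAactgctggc
Kif11: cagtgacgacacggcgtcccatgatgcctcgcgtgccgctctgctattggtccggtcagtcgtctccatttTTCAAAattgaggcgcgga
Cdk1, the kinase that drives entry into mitosis, was at 665, 270.0 and 1061 against 4534 and 1780 (log2 -2.25 ± 0.55, adjusted p = 0.0185), a call lost without control replicate 1 (0.064) or wannabe replicate 1 (0.14). Kif11, the spindle motor Eg5, was at 1808, 566 and 2382 against 9433 and 2584 (adjusted p = 0.0415), a call lost without control replicate 1 (0.098), control replicate 2 (0.0862) or wannabe replicate 1 (0.452), in a fit of only the 5 libraries (0.0615) and with DESeq2 (0.0513).

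Glycolysis genes were lower in control in most members. Of 21 tested, 12 were lower and 2 higher, with a median of -0.59. Aldoa, aldolase A, was at 16427, 15046 and 15962 against 33740 and 39058 (log2 -1.20 ± 0.14, adjusted p = 0.000725), and Pkm, pyruvate kinase, at 44245, 42389 and 45719 against 80788 and 79955. Tpi1 and Gapdh, the enzymes that follow aldolase, were 2.26-fold and 1.70-fold lower and Ldha, lactate dehydrogenase A, 1.51-fold lower. The exceptions were Eno3, the muscle enolase, 3.57-fold higher (adjusted p = 0.00718), and Slc2a3, the glucose transporter GLUT3, 1.95-fold higher (adjusted p = 0.0168), a call lost without control replicate 1 (0.051) or wannabe replicate 1 (0.084). The summed list held 5745 to 6223 CPM in control and 9505 and 9510.5 in wannabes. Without control replicate 1 the count of lower genes was 6, and it was 7 without control replicate 2, control replicate 3 or wannabe replicate 2.

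Ribosomal protein genes were called lower for 7 of 40 and respiratory complex I genes for 3 of 36, with medians of -0.51 and -0.39. The complex I share, 8.33%, was near the 6.27% of all genes tested. All 40 ribosomal genes had a negative log2 fold change. Without wannabe replicate 1 there were 21 and 8 lower calls, and without wannabe replicate 2, control replicate 2 or control replicate 3 there were none in either list. Heat shock genes were higher for 4 of 13 tested, of which Hspa1a was at 1607, 125 and 116 against 4.70 and 26.9 and Hspa1b at 3991, 128 and 275 against 24.4 and 54.9. Control replicate 1 held most of these near-identical transcripts. Without it no heat shock gene was called, with adjusted p = 0.14 for Hspa1a and 0.097 for Hspa1b, and without wannabe replicate 1 they were 0.087 and 0.11. Hspa1b also lost its call without wannabe replicate 2 (0.0795) and in a fit of only the 5 libraries (0.0514).

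**Figure D4:**
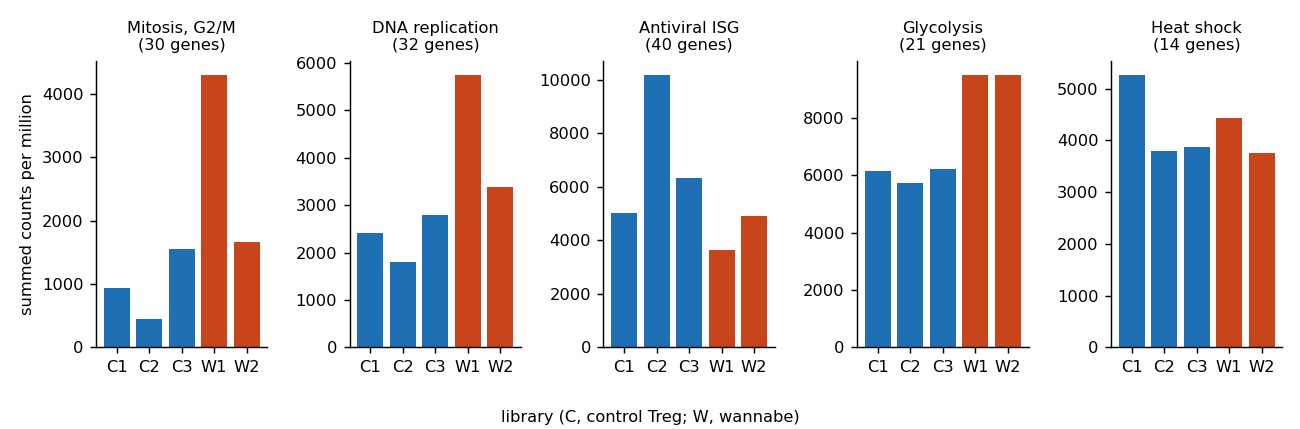
Bars give CPM summed over each of 5 gene lists in each library, with C1 to C3 for the control Treg libraries (blue) and W1 and W2 for the wannabe libraries (red). Wannabe replicate 1 leads the mitosis and replication lists, control replicate 2 the antiviral list and control replicate 1 the heat shock list. For glycolysis, replication and mitosis, both wannabe libraries exceed all control libraries, by the least for mitosis (1665 against 1551).

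The difference also moved with the composition of transcripts. The 10504 well-counted genes of known sequence (97.6% of those averaging over 100 normalized counts) were ranked by GC content into 10 equal bins. In the bin of lowest GC the log2 fold changes had a median of 0.33, and 16.8% of its genes were called higher and 2.38% lower. In the eighth bin the median was -0.21, and in the bin of highest GC it was -0.07, with 12.4% higher and 9.61% lower. By exon length, the median was -0.24 in the bin of shortest and 0.35 in the bin of longest transcripts. With an offset for GC content and length in each library, chosen after seeing the data, 2872 genes were called, of which 2077 were among the 2416, and none of those 2077 changed direction. The count of glycolysis genes called lower was again 12, that of antiviral genes called higher 18 and that of mitosis genes called lower 21. The part of transcript composition in the difference of any gene was not tested.

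A second pair of populations, with no library in common, tells how genes that separate control Treg cells from wannabes behaved within Foxp3-deficient cells. Activated wannabes came from 2 adult female Foxp3LSL/DTR-GFP Cd4wt mice made sick by diphtheria toxin, and resting wannabes from 3 healthy Foxp3LSL/+ Cd4wt females. Of 12972 genes tested in both experiments, 11.4% rose and 11.0% fell in activated wannabes. Of the 922 genes lower in control Treg cells, 394 (42.7%) rose and 42 (4.56%) fell. Of the 1464 genes higher in control Treg cells, 72 (4.92%) rose and 322 (22.0%) fell. The share of control-lower genes that rose was between 31.4% and 57.3% when a control Treg or wannabe library of the males was left out. Without 1 of the activated libraries fewer genes passed the test in the females, 751 without replicate 1 and 797 without replicate 2 against 2958.

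Among the members described above, all 30 mitosis genes and all 32 replication genes rose in activated wannabes, and 17 of 21 glycolysis genes rose. Epas1 rose by 4.35 on the log2 scale (adjusted p = 0.0013), Myo6 by 1.64 (adjusted p = 0.00055), Gzma by 6.79, Fn1 by 8.39 and Scin by 5.40. Sesn1 fell by 2.00 (adjusted p = 0.00027) and Ubash3b fell by 1.29 (adjusted p = 0.00077). Other members did not follow this direction. Id2 differed by -0.33 (adjusted p = 0.307) and Hif1a by 0.03 (adjusted p = 0.857), neither past the test, while Il21 fell by 2.73 and Il10 by 0.94 in activated wannabes although both were lower in control Treg cells. Tnfrsf9, Ikzf2, Lrrc32 and Klrg1, higher in control Treg cells than in wannabes, rose as well. Antiviral genes were called higher for 4 of 40 and lower for 2.

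**Figure D5:**
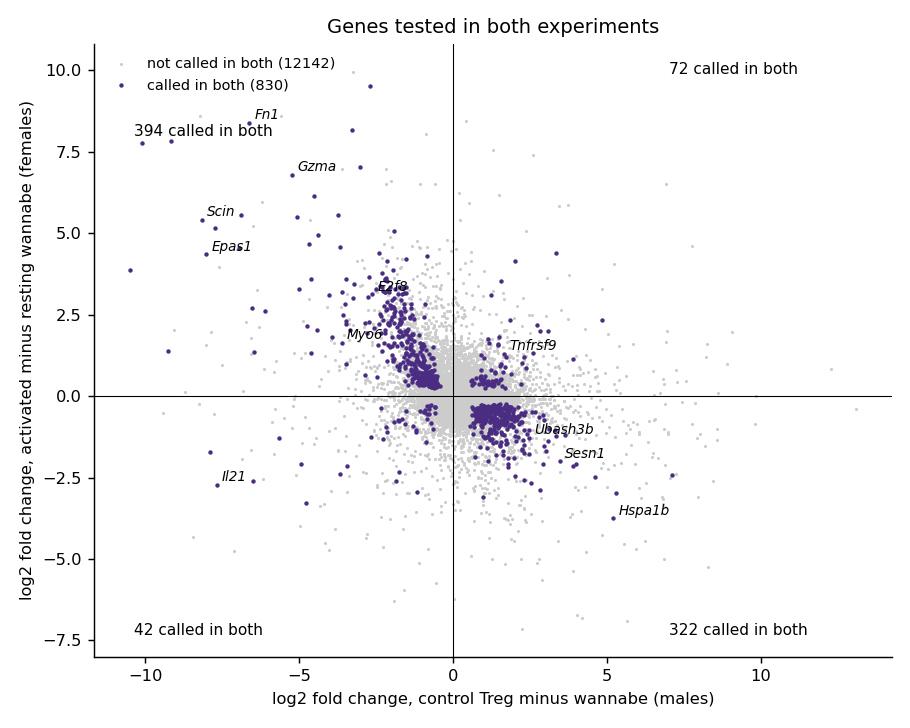
Each point is 1 of 12972 genes, with the log2 fold change of control Treg cells over wannabes in males on the horizontal axis and that of activated over resting wannabes in females on the vertical axis. Purple points were called in both experiments, 394 at the upper left, 322 at the lower right, 72 at the upper right and 42 at the lower left.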

How the data were processed

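Cells were doubly sorted from pooled spleen and lymph nodes, RNA was amplified with SMART-Seq v4, and paired reads were aligned to GRCm38 with STAR 2.7.3a, according to the paper and the submitters' processing notes. The authors deposited raw counts per gene for each library and describe the replicates as biological. The annotation and strand setting of the counting are not given in the sources used here. Of 24421 entries, 4 without a gene name (0.0052% to 0.0084% of counts) were left out.

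Counts were filtered with filterByExpr, scaled by TMM and fitted with edgeR 4.0.16 (R 4.3.3) by its quasi-likelihood test over the control, wannabe and rescued male libraries, without a block. P-values were adjusted by Benjamini-Hochberg over 14925 genes, and an adjusted p under 0.05 was called. Error is the SE of the log2 fold change. The resting and activated female libraries were fitted apart (13166 genes). DESeq2 1.42.0, other scaling and filters, a replicate block, and the omission of each library were tried, and a GC and length offset was added after seeing the data. The script was tested on simulated data. A count of 3 was the floor, which covers counting error only.

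Genes named in the text were the label checks Foxp3 and Thy1, the 5 markers Epas1, Myo6, Sesn1, Id2 and Ubash3b, the 10 largest rises and 10 largest falls among called genes with a mean over 100 and groups that do not overlap, the 10 smallest p, up to 5 called members of each gene list with the smallest p, and members that define a list. Further list members, among them Lrrc32, Ikzf2, Nt5e, Entpd1, Fgl2, Ltb, Tnfsf11, Eno3 and Slc2a3, were named after their values were seen. Members and lists were chosen with earlier results of these data known. Replicate numbers did not pair samples, with correlations of deviations of -0.0065 and 0.028 for same-numbered control and wannabe libraries. Of the other libraries, the rescued ones entered only through the shared fit and their counts for 4 of the 5 markers.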

Additional observations from a re-analysis of the deposited data

How the results depend on the processing

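DESeq2 called 3767 genes in place of 2416, of which 1625 were lower in control in place of 936. Leaving out 1 library gave 1549 to 2221 genes in all, 1016 to 1292 higher and 507 to 929 lower. The other settings gave 2056 (only the 5 libraries) to 2872 (GC and length offset, with 54.7% of calls higher in place of 61.3%), and no gene was called in opposite directions under any of them. With the replicate number as a block, which the data did not show to pair the samples, 2304 genes were called, 2037 of them among the 2416, and in the females 2045 in place of 2958. Leaving out 1 female library gave 751 to 3215. With an unadjusted p in the females, 18.7% of all genes rose and 19.4% fell in activated wannabes, against 9.49% and 34.6% of the genes higher in control Treg cells and 55.4% and 7.05% of those lower. Of 112 called genes followed across settings, 94 to 101 kept their call when 1 library was left out, 108 with the block and 106 with the offset. The 112 leave out some called genes named here that lost their call, among them Nkg7, Klrk1, Itgae, Btla and Sh2d1a. Ubash3a, not called, had a log2 fold change of -0.38 without wannabe replicate 1 and 0.11 without wannabe replicate 2. The biological coefficient of variation was 0.510, against 0.171 in the females, and 0.887% of genes with a mean count of up to 30 were called.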

Other observations

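Gene groups outside the comparisons above are given by their counts, beside 9.92% higher and 6.27% lower of all genes tested. Of 16 follicular helper genes tested in control Treg cells against wannabes, 5 were higher (Tox, Id3, Btla, Sh2d1a and Cxcr5) and 1, Il21, was lower, with a median of 0.18. Btla lost its call without control replicate 3 (0.0658) or wannabe replicate 2 (0.116). Sh2d1a lost it in 6 settings, among them without control replicate 3 (0.0816) and with the GC and length offset (log2 0.08, adjusted p = 0.858). Cxcr5 lost it in 6, among them without control replicate 2 (0.103) or 3 (0.116) or wannabe replicate 1 (log2 0.60). Without control replicate 3, Btla, Sh2d1a and Cxcr5 thus all lost their call. Of 22 costimulatory and coinhibitory receptors, 5 were higher (Cd86, Slamf1, Btla, Cd28 and Ctla4) and 2 lower (Tigit and Havcr2), with a median of 0.46, and without control replicate 3 or wannabe replicate 2 the count of higher genes was 2. Cd28 lost its call without control replicate 1 (0.0531), control replicate 3 (0.0659) or wannabe replicate 2 (0.109), in a fit of only the 5 libraries (0.0514) and with the offset (0.429), Slamf1 with the offset (0.105) and Havcr2 without wannabe replicate 1 (0.0522). Of 17 TNF receptor genes, 2, Tnfrsf9 and Fas, the death receptor, were higher, a share near that of all genes. Fas lost its call without control replicate 3 (0.0827), wannabe replicate 1 (0.0532) or wannabe replicate 2 (0.0897) and with the offset (0.0517). Of 17 genes induced early after receptor stimulation, 4 were higher and 2 lower. The count of higher genes was 1 without control replicate 1 or 2 and 0 without wannabe replicate 1. The lower ones, Batf and Egr2, both lost their call without control replicate 1 (0.0901 and 0.0789) or wannabe replicate 2 (0.175 and 0.145).

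Of 17 BCL-2 family genes, 4 were lower (Bcl2a1d, Bcl2l11, Bcl2a1b and Bik) and none higher in edgeR's test, and 5 and none with DESeq2. Without control replicate 1 or 2 the count of lower genes was 1, without control replicate 3 or wannabe replicate 2 and with the replicate block 2. Bcl2a1d, a survival factor with near-identical copies, kept its call in each of these fits, at 1044, 845 and 1025 against 2854 and 2185 (adjusted p = 0.00503). Of 21 stress response genes, 3 were higher and 2 lower, and of 28 sterol and fatty acid synthesis genes 1 was higher and 2 lower, with the lower share near that of all genes. Insig1, the higher sterol gene, lost its call without control replicate 1 (0.068), control replicate 2 (0.0596), wannabe replicate 1 (0.0565) or wannabe replicate 2 (0.116), and Pdia6, a lower stress gene, without any library but control replicate 1 (0.0761 to 0.142). Markers of other cells gave 0 of 9 calls for B cells in edgeR and in DESeq2, 1 of 9 for myeloid cells, 1 of 7 for CD8, NK and γδ T cells and 3 of 9 for erythroid and stromal cells (Pecam1 higher, Col1a2 and Hba-a1 lower). The last count was 0 without wannabe replicate 1 (0.0987, 0.0584 and 0.466) and 1 without any single control library, and that of CD8, NK and γδ T cells was 0 without control replicate 1, control replicate 2 or wannabe replicate 2. The myeloid one was Itgam, at 332, 108 and 341 against 2.82 and 29.1 (adjusted p = 0.0256), a call lost without control replicate 1 (0.071), control replicate 3 (0.071) or wannabe replicate 1 (0.081) and with the replicate block (0.0698).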
